A study of Mus musculus with 7 samples.

Results

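The genes described here are 8 components of bone morphogenetic protein (BMP) signalling in mouse embryonic stem cells (ESCs), namely the ligand gene Bmp4, the receptor gene Bmpr1a, the inhibitor genes Smad6 and Bambi, and the target genes Id1, Id2, Id3 and Id4. They were chosen by gene name in GENCODE M1, and all 8 are among the 31498 genes measured. RNA-seq had been performed in 4 clones of F123, a mouse ESC line whose genome is CAST from one parent and 129 from the other. The clones differ in a super-enhancer (SE) located downstream of Sox2, which had been deleted with a pair of CRISPR guide RNAs. The wild type clone carries both copies of the SE (CAST+/129+), the CAST+/129- clone lacks the copy on the 129 allele, the CAST-/129+ clone lacks the copy on the CAST allele, and the CAST-/129- clone lacks both. ChIP-seq for H3K4me3 and H3K27ac had been performed in unmodified F123 cells, and ChIP-seq for H3K27ac also in J1 cells, an ESC line of 129 background. Each genotype is represented by 1 clone and 1 library, so that the difference between clones and the effect of the deletion cannot be told apart, no difference below has a replicate check, and no p-value is given. After transfection the cells had been plated on mouse embryonic fibroblast feeder cells for recovery. F123 cells had been passaged on gelatin without feeder cells before harvest.

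BMPs are secreted ligands that assemble type I and type II receptors, which phosphorylate SMAD1, SMAD5 and SMAD9. These join SMAD4 in the nucleus and activate target genes, among which the Id genes respond most directly. Id proteins are helix-loop-helix proteins without a DNA-binding region that capture E proteins and keep them from DNA, and in mouse ESCs cultured with LIF, BMP acting through Id genes is known to restrain differentiation.

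The promoters of Bmp4, Smad6, Id2 and Id3 are shown first, because Bmp4 and Id2 had the largest decrease and increases, Id3 passed the threshold in 1 clone, and Smad6 holds the SMAD palindrome. They are RefSeq sequences of build GRCm38.p6, written 5′ to 3′ on the strand of the gene, from 250 bases before the start to 30 bases from the start on, and they differ in build from all other coordinates here, which are mm9. Capitals mark GTCTAGAC, the palindrome that SMAD3 and SMAD4 are known to bind, or GGCGCC, a GC-rich SMAD element.
Bmp4, chr14:46390640-46390919, minus strand: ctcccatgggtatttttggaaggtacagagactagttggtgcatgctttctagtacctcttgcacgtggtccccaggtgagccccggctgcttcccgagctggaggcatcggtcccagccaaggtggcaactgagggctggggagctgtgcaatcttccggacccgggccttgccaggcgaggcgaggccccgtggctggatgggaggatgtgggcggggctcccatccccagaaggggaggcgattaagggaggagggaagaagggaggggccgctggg
Smad6, chr9:64022030-64022309, minus strand: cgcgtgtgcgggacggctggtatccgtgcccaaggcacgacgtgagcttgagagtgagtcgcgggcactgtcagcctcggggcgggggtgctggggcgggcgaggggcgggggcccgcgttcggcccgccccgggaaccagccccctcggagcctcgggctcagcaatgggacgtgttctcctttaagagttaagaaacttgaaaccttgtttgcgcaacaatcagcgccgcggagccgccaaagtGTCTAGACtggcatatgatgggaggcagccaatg
Id2, chr12:25096063-25096342, minus strand: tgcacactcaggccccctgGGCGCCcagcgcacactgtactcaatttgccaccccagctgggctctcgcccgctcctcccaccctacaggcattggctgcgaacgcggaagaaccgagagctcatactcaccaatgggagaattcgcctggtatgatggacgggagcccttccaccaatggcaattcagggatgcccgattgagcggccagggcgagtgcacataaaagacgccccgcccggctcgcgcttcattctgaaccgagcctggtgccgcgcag
Id3, chr4:136143572-136143851, plus strand: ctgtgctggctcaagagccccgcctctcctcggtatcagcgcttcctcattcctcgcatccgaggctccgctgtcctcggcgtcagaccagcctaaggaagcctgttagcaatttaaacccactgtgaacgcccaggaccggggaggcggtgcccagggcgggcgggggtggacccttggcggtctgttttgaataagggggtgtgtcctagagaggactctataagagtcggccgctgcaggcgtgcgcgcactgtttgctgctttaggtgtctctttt

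Of the 8 genes, 6 have an entry among the 32851 promoters of the RefSeq table, which span 300 bases, 250 before the start and 50 from the start on. GTCTAGAC was searched on both strands and occurred in Smad6 alone of the 6, from -4 to 3 relative to the start base counted as 0. It is present in 0.213% of all promoters of this length. GGCGCC occurred in Bmpr1a from -198 to -193, in Id2 from -231 to -226 and in Id4 from -148 to -143, against 11.9% of all promoters, and in neither Bmp4 nor Id3. These letters are G and C only, and the 11.9% is not matched for the GC content given below, so no enrichment can be read from it. The letters CCAAT occurred on either strand in Bmpr1a, Smad6, Id2 and Id4, against 37.4% of all promoters. The octamer ATTTGCAT, which POU factors such as Oct4 recognise and which 1.74% of promoters hold, and the Sox core ACAAAG, which 18.7% hold, occurred in none of the 6. None of the matches overlapped one another. The GC content of the 300 bases was 64% in Bmp4, 79.3% in Bmpr1a, 66.3% in Smad6, 63.3% in Id2, 60% in Id3 and 73.3% in Id4, each above the median of 52.7% over all entries.

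The RNA-seq libraries held between 5847451 distinct sense alignments on genes in CAST-/129- and 24891864 in wild type. Precision follows the count of each gene, and Id2, with 94 alignments, and Id3, with 158, had their fewest in wild type. FPKM is the number of distinct alignments per kilobase of exonic sequence and per 1000000 alignments on genes, and intervals in parentheses are exact 95% Poisson intervals or, for ratios, exact binomial intervals. They cover counting error only. Sox2 itself was at 174 FPKM in wild type, and the CAST+/129- clone had 81.8, the CAST-/129+ clone 72.8 and the CAST-/129- clone 7.38, which follows the labels. The summed FPKM of 10 ESC markers was 1820 in wild type, with 1581, 1483 and 1092 in CAST+/129-, CAST-/129+ and CAST-/129-, and 1, 1 and 5 of the markers were called lower by the 3-fold rule described below. Sox2 is itself among the 10, and among the 5 called lower in CAST-/129-. Pou5f1 was at 131 to 206 FPKM in every library, while Klf4 was at 120.3 FPKM in wild type and at 19.2, 13.8 and 8.27 in the mutant clones. Markers of other cell types also differed between the clones. The summed FPKM of 13 fibroblast markers was 24.6 in wild type, and the CAST+/129- clone had 89.4, the CAST-/129+ clone 95.7 and the CAST-/129- clone 479, with Lum and Fap at 0 counts in wild type. Of the 13, 2, 2 and 8 were called higher, against 0.321%, 0.473% and 0.813% of all genes. Col1a1 alone was at 3.47, 38.9, 38.8 and 174 FPKM. Thy1 was lower than wild type in the clones with 1 SE copy, at 11.4, 5.68, 6.26 and 27.6 FPKM. Pdgfrb was at 2.33, 2.13, 4.05 and 8.99 FPKM. For 8 trophectoderm markers the sums were 29, 329.9, 564 and 550.1 in the same order, most of it Krt8 and Krt18. Other markers of that list differed from these sums. Eomes was at 3.89, 18.3, 28.2 and 13 FPKM, Elf5 at 0.0273, 2.11, 4.25 and 0.116, and Cdx2 at 0.0711, 0.708, 1.09 and 1.59. For 7 mesoderm and primitive streak markers the sums were 1.2, 5.75, 41.6 and 80.7, with Mesp1 at 0 counts in CAST-/129-, and for 7 primitive endoderm markers 158, 45.8, 93.3 and 79.5, led in the wild type clone by Lamb1 at 46.7 and Gata6 at 42.9 FPKM. Not all of the latter list was lower than wild type in the mutant clones, since Foxa2 was at 1.36, 0.642, 9.02 and 11.4 FPKM from wild type to CAST-/129-, and Sox17 at 4.73, 1.78, 6.52 and 4.93. The part of these cells in the levels of the BMP pathway genes was not tested, and in bulk RNA fewer cells of a type and less RNA per cell cannot be told apart.

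**Figure D1:**
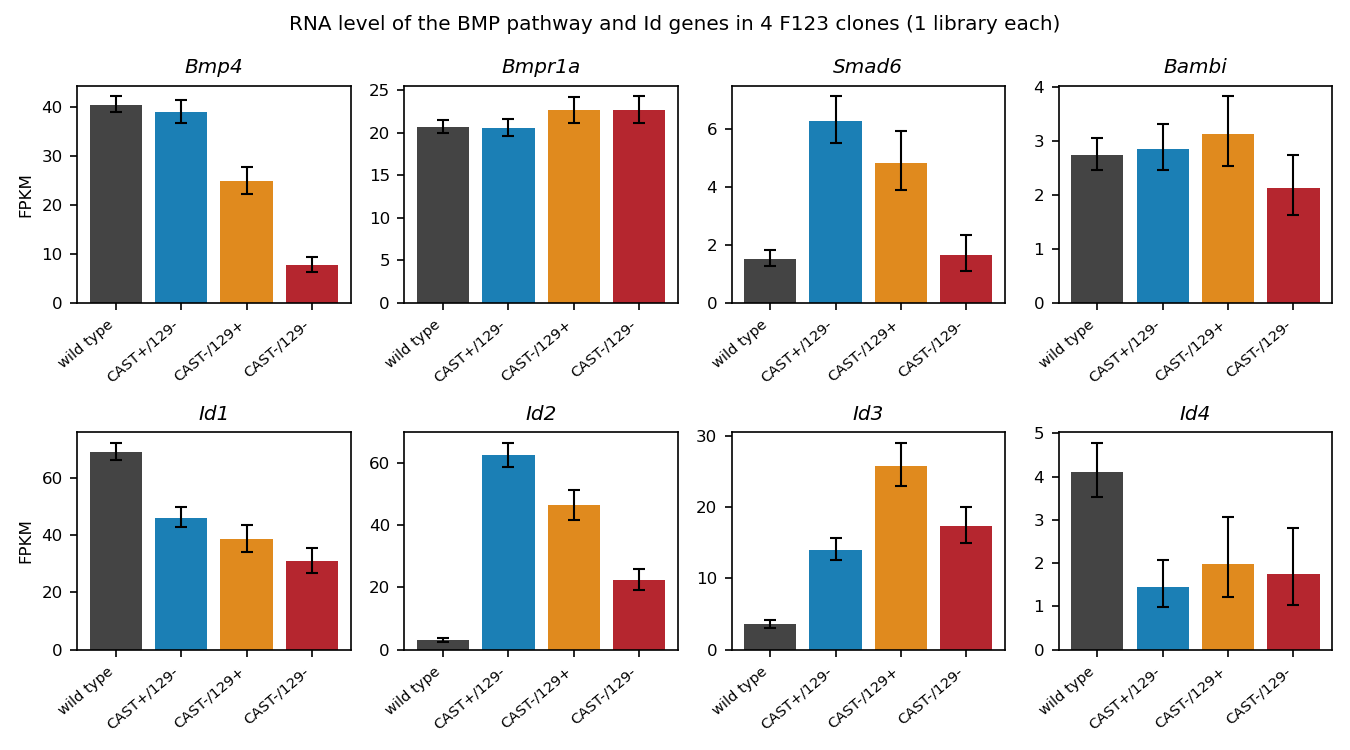
FPKM of the 8 genes in the 4 F123 clones, 1 library each. Bars are FPKM on a linear axis from 0 that differs between panels, and error bars are exact 95% Poisson intervals of the count. Id1 is highest in wild type and lowest in CAST-/129-. Bmp4 is lowest in CAST-/129-, and its wild type and CAST+/129- intervals overlap. Id2 and Id3 are lowest in wild type, and Bmpr1a stays between 20.6 and 22.7 FPKM.

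A change was called where FPKM plus 4 differed by at least 3-fold from wild type. The added 4 and the 3-fold cutoff are those of the study, but FPKM was computed anew here, so the calls are not the study's own. The added 4 damps the ratios of genes at low levels. At their wild type levels Smad6, Bambi, Id2, Id3 and Id4 could not be called lower by this rule, even at 0 counts. The counts of lower genes among the 8 therefore rest on Bmp4, Bmpr1a and Id1. In CAST+/129- 1 of the 8 genes was called higher, against 0.321% of all genes, and 0 were called lower, against 0.305%. In CAST-/129+ 2 were called higher, against 0.473%, and 0 lower, against 0.33%. In CAST-/129- 1 was called higher, against 0.813%, and 1 lower, against 0.511%. The median log2 ratio of the 8 genes was 0.01, 0.09 and -0.05 in these 3 clones, beside 0.00 over all genes in each. Over genes with a mean of at least 1 FPKM it was -0.03, -0.07 and -0.08. The called genes were Id2 in all 3 clones, Id3 in CAST-/129+ and Bmp4 in CAST-/129-. Counting intervals alone separated more genes from wild type. By that measure 3 genes were higher and 2 lower in CAST+/129-, where 26.3% and 29.9% of the genes compared were. In CAST-/129+ 4 were higher and 3 lower, against 24.6% and 28.2%, and in CAST-/129- 3 were higher and 3 lower, against 26.2% and 29.9%. The median log2 ratio of expressed genes on the chromosomes that carry these 8 genes was between -0.11 and 0.02 in the mutant clones.

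Bmp4 (ENSMUSG00000021835.8) encodes the BMP ligand for which ESC self-renewal is best known and lies on the minus strand of chromosome 14 at 47003195 to 47010344. It was at 40.5 FPKM (38.9 to 42.2) in wild type, and the CAST+/129- clone had 39 (36.7 to 41.4), the CAST-/129+ clone 24.9 (22.3 to 27.7) and the CAST-/129- clone 7.77 (6.33 to 9.44). The wild type and CAST+/129- levels overlapped, the CAST-/129+ level was lower than both, and the CAST-/129- level was the lowest. As a share of wild type, Bmp4 in CAST+/129- was at 96.2% (89.4 to 103), in CAST-/129+ at 61.3% (54.5 to 68.8) and in CAST-/129- at 19.2% (15.5 to 23.4), the latter a 5.22-fold decrease with a log2 ratio of -1.92. The study had listed Bmp4 among its lower genes from these same libraries, so the decrease is not independent evidence.

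The clones with 1 SE copy differed from each other in Bmp4, with CAST-/129+ at 63.8% (56.3 to 72.2) of CAST+/129-. The clone without a copy was at 19.9% (16.1 to 24.5) of CAST+/129- and at 31.2% (24.8 to 39.1) of CAST-/129+. All 4 exon blocks of Bmp4 were lower in CAST-/129- than in wild type, at 13%, 15.9%, 25% and 18.5% of the wild type FPKM from the first to the last. In CAST-/129+ the first and second blocks, at 87.7% and 101%, were nearer to wild type than the third and last, at 62.3% and 53.8%, with 42 and 33 alignments in the former pair. Gm15217 and Gm15222 overlap Bmp4 on the opposite strand, and antisense alignments in Bmp4 exons numbered 15 in wild type, 2 in each clone with 1 SE copy and 0 in CAST-/129-, beside 2243 sense alignments in wild type.

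Of the 9516 genes with a mean of at least 5 FPKM over the 4 libraries, the 3 whose log2 ratios in the mutant clones were nearest to those of Bmp4 were Zfp42, Sap30 and Acp6, at Euclidean distances of 0.30, 0.31 and 0.31. Zfp42, which encodes the ESC marker Rex1, was at 185 FPKM in wild type, and the CAST+/129- clone had 165, the CAST-/129+ clone 101 and the CAST-/129- clone 52.2. Sap30, a subunit of a histone deacetylase complex, was at 67.7, 59.6, 37.1 and 18.1 FPKM in the same order. Acp6, an acid phosphatase gene, was at 35.4, 30.7, 20.4 and 8.6 FPKM. Each log2 ratio shares the wild type library, and the distance is over 3 clones.

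Bmpr1a (ENSMUSG00000021796.8) encodes the type I BMP receptor and lies on the minus strand of chromosome 14 at 35223920 to 35316527. It was at 20.7 FPKM (20 to 21.5) in wild type, and the CAST+/129- clone had 20.6 (19.6 to 21.6), the CAST-/129+ clone 22.7 (21.2 to 24.2) and the CAST-/129- clone 22.7 (21.2 to 24.3). Its log2 ratios were -0.01, 0.11 and 0.11. Relative to wild type it was at 99.3% (93.5 to 105), 109% (101 to 118) and 109.5% (101 to 118), so that both clones without the CAST copy of the SE were slightly above wild type. With reads thinned to the smallest library, the last 2 values were 117% (106 to 129) and 121% (109.5 to 133). With all alignments, not only those on genes, as library size, the log2 ratios were 0.03, 0.05 and 0.16. The small difference in CAST-/129+ thus depends on the library size used.

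Smad6 (ENSMUSG00000036867.5) encodes an inhibitory SMAD that is itself induced by BMP signalling, and lies on the minus strand of chromosome 9 at 63800953 to 63869866. It was at 1.52 FPKM (1.26 to 1.82) in wild type, and the CAST+/129- clone had 6.28 (5.52 to 7.12), the CAST-/129+ clone 4.82 (3.89 to 5.92) and the CAST-/129- clone 1.64 (1.1 to 2.33). Both clones with 1 SE copy stood above wild type, and the clone with none overlapped it. The increase was 4.12-fold in CAST+/129- and 3.17-fold in CAST-/129+, while CAST-/129- was at 107% (69.4 to 161) of wild type. With reads thinned to the smallest library, where wild type kept 22 alignments, the folds were 5.05 (505%, 316 to 841) and 5.06 (506%, 313 to 851), CAST-/129- was at 165% (92.1 to 300.3), and the clones with 1 SE copy no longer differed beyond counting error. Because of the low level, the log2 ratios of FPKM plus 4 were 0.90, 0.68 and 0.03, and none was called. CAST-/129- was at 26% (17.2 to 38.1) of CAST+/129- and 33.9% (21.7 to 51.7) of CAST-/129+.

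The Smad6 alignments lay in 4 of its 6 exon blocks, and in each of these the FPKM in both clones with 1 SE copy was above that in wild type. The first block, which holds most of the exonic sequence, held 59 wild type alignments, and 134, 34 and 20 in CAST+/129-, CAST-/129+ and CAST-/129-. The remaining pair of blocks had 0 alignments in every library.

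Bambi (ENSMUSG00000024232.1) encodes a receptor-like protein without a kinase domain that blocks BMP and TGF-β receptors, and lies on the plus strand of chromosome 18 at 3507955 to 3516402. It was at 2.75 FPKM (2.47 to 3.06) in wild type, and the CAST+/129- clone had 2.86 (2.46 to 3.31), the CAST-/129+ clone 3.13 (2.54 to 3.83) and the CAST-/129- clone 2.14 (1.64 to 2.74). No ratio to wild type excluded 100%, the lowest being 77.7% (58.5 to 102) in CAST-/129-. Between the mutant clones, CAST-/129- was at 68.2% (48.8 to 94.7) of CAST-/129+, and at 72.1% (50.8 to 102) with thinned reads. Its exons share 360 stretches of at least 60 bases at 90% identity or more with other places in the genome, so its counts may hold reads of repeats.

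**Figure D2:**
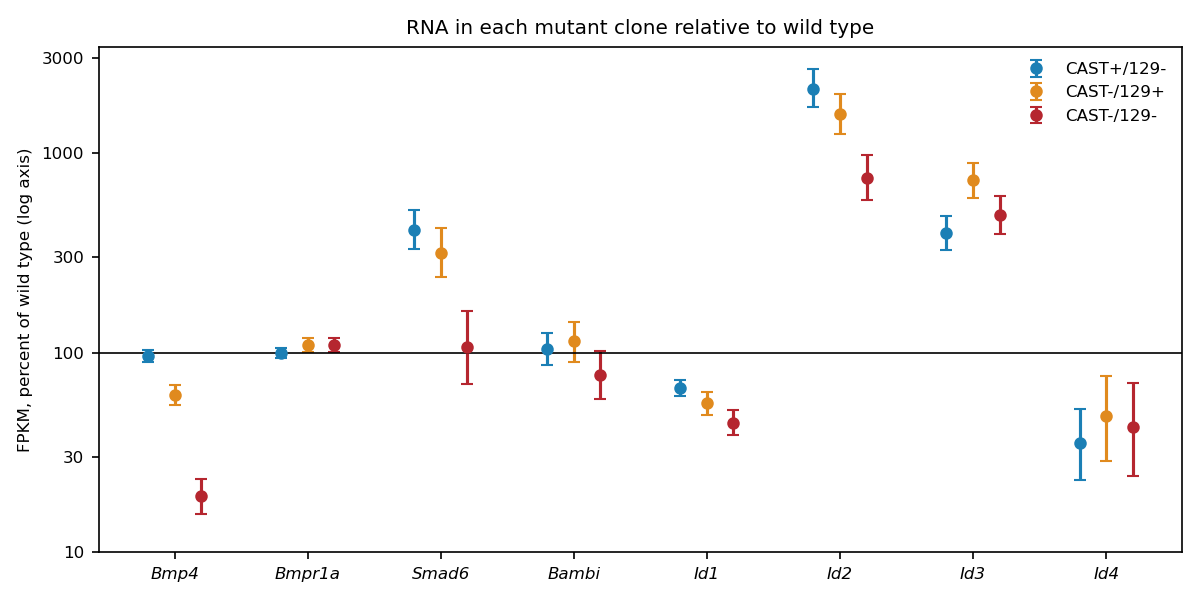
FPKM of each gene in the 3 mutant clones as a percent of wild type, on a log axis. Points are single libraries and bars exact 95% binomial intervals of the ratio. Id2 lies between 752% and 2100%, Id4 between 35.2% and 48.2%, and Bmp4 reaches 19.2% in CAST-/129-.

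The Id genes did not move together. Id1 and Id4 were lower and Id2 and Id3 higher than wild type in each of the 3 mutant clones beyond counting error. The Id genes are direct BMP targets, and other signals are also known to regulate them.

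Id1 (ENSMUSG00000042745.9), on the plus strand of chromosome 2 at 152561987 to 152563146, was the highest of the 4 Id genes in wild type. It was at 69 FPKM (66 to 72.1) in wild type, and the CAST+/129- clone had 46 (42.6 to 49.6), the CAST-/129+ clone 38.4 (34 to 43.3) and the CAST-/129- clone 30.8 (26.8 to 35.3). Each step of this order was beyond counting error, the smallest being CAST-/129+ at 83.6% (72.3 to 96.4) of CAST+/129-, but with reads thinned to the smallest library that step was 92.2% (77.7 to 109) and no longer excluded 100%. Relative to wild type Id1 was at 66.7% (61 to 72.8), 55.7% (48.9 to 63.3) and 44.7% (38.6 to 51.6), with log2 ratios of -0.55, -0.78 and -1.07, and it was called in no clone.

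The genes nearest to Id1 by the same measure were Gm13231, Gm9770 and Zfp518b, at distances of 0.06, 0.06 and 0.09. Gm13231 was at 17.6 FPKM in wild type, and the CAST+/129- clone had 10.7, the CAST-/129+ clone 8.95 and the CAST-/129- clone 6.54, and Zfp518b, a zinc finger gene, at 24.1, 14.6, 12.3 and 10.1 FPKM. Gm9770 was at 27.5, 17.5, 13.6 and 11 FPKM.

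Id2 (ENSMUSG00000020644.8), on the minus strand of chromosome 12 at 25778666 to 25780957, had the largest increase of the 8 genes. It was at 2.97 FPKM (2.4 to 3.64) in wild type, and the CAST+/129- clone had 62.4 (58.6 to 66.4), the CAST-/129+ clone 46.4 (41.7 to 51.4) and the CAST-/129- clone 22.4 (19.1 to 26). The wild type level was far below the mutant levels, and the clone with no SE copy was the lowest of the 3 mutant clones. The fold over wild type was 21 in CAST+/129-, 15.6 in CAST-/129+ and 7.52 in CAST-/129-, with log2 ratios of 3.25, 2.85 and 1.92. CAST-/129- was at 35.8% (30.2 to 42.2) of CAST+/129- and 48.2% (39.9 to 58.1) of CAST-/129+.

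All 3 exon blocks of Id2 were higher in every mutant clone, the least raised block reaching 1882% of the wild type FPKM in CAST+/129-, 1464% in CAST-/129+ and 620.5% in CAST-/129-. A stretch on chromosome X at 97780377 to 97781469 resembles the Id2 transcript, with pieces of up to 324 bases at up to 95.6% identity. It held 4 alignments in CAST+/129- and 0 in each of the other libraries, which is small beside the 990 alignments on Id2 in that clone.

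Id3 (ENSMUSG00000007872.3), on the plus strand of chromosome 4 at 135699412 to 135701670, was at 3.54 FPKM (3.01 to 4.14) in wild type, and the CAST+/129- clone had 14 (12.5 to 15.6), the CAST-/129+ clone 25.8 (22.9 to 29) and the CAST-/129- clone 17.3 (14.9 to 20). It differed from Id2 in the order of the mutant clones, being highest in CAST-/129+, at 184% (156 to 217) of CAST+/129-. The fold over wild type was 3.95, 7.28 and 4.88, with log2 ratios of 1.25, 1.98 and 1.5, of which that in CAST-/129+ was called. With reads thinned to the smallest library the folds were 4.57, 10.3 and 6.85, and the log2 ratio in CAST-/129- became 1.71 and passed the threshold too. The first 3 of its 4 exon blocks were higher in every mutant clone, and the last held at most 2 alignments in any library.

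Id4 (ENSMUSG00000021379.1), on the plus strand of chromosome 13 at 48356796 to 48359405, was at 4.11 FPKM (3.52 to 4.78) in wild type, and the CAST+/129- clone had 1.45 (0.977 to 2.07), the CAST-/129+ clone 1.98 (1.21 to 3.06) and the CAST-/129- clone 1.75 (1.02 to 2.8). The mutant clones overlapped one another and none reached the wild type interval. Relative to wild type they were at 35.2% (23 to 52.1), 48.2% (28.7 to 76.8) and 42.6% (24.2 to 70.2), from 30, 20 and 17 alignments against 170. No ratio was called, but at 4.11 FPKM in wild type the rule could not call Id4 lower.

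**Figure D3:**
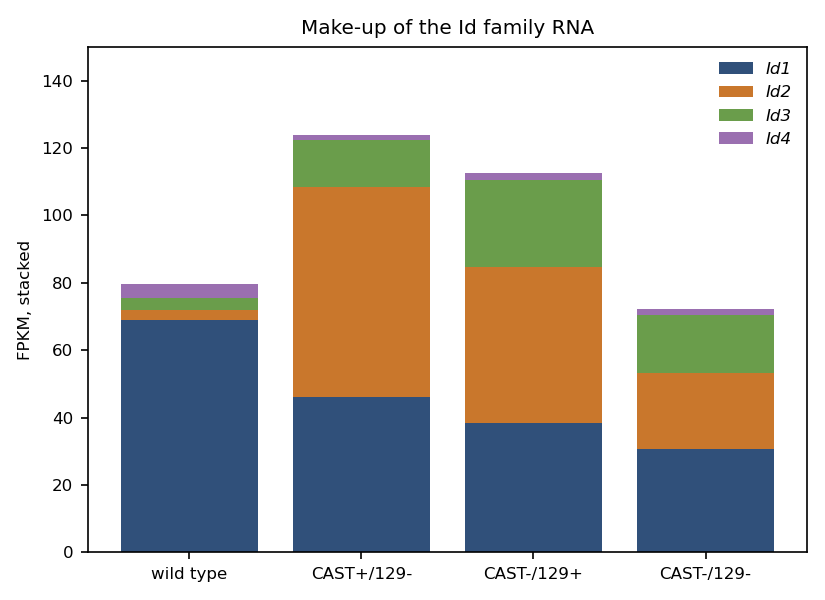
Summed FPKM of Id1, Id2, Id3 and Id4 in the 4 clones, stacked on a linear axis, 1 library each and without error bars. The sums are 79.6, 124, 113 and 72.2 FPKM from wild type to CAST-/129-, and the share of Id1 goes from 86.6% in wild type to between 34.1% and 42.7% in the mutant clones.

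The make-up of the Id RNA therefore differed more than its sum. Summed over the 4 genes, Id RNA was at 79.6 FPKM in wild type, and the CAST+/129- clone had 124, the CAST-/129+ clone 113 and the CAST-/129- clone 72.2. Id1 made up 86.6% of it in wild type, and Id2 3.74%, Id3 4.45% and Id4 5.17%. In CAST+/129- Id2 was the largest share at 50.4%, ahead of Id1 at 37.1%. In CAST-/129+ Id2 was at 41.2%, Id1 at 34.1% and Id3 at 22.9%, and in CAST-/129- Id1 was at 42.7%, Id2 at 31% and Id3 at 23.9%. The summed FPKM of the E protein genes Tcf3, Tcf4 and Tcf12, the binding partners of Id proteins, was 63, 45.5, 61.7 and 65.1 in the order from wild type to CAST-/129-. The ratio of the Id sum to the E protein sum was thus 1.26 in wild type, and the CAST+/129- clone had 2.72, the CAST-/129+ clone 1.82 and the CAST-/129- clone 1.11.

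Identical alignments are collapsed in the files, which takes most from genes with many reads per alignment in the deepest library. The levels were therefore also computed after thinning each library to the reads of the smallest before collapsing. In wild type the 8 genes had 1.42 to 1.93 reads per alignment, against 2.58 over the whole library. All 8 were at a lower wild type FPKM when thinned. Thinned, Bmp4 was at 36.8 FPKM in wild type and 38.6, 24.3 and 7.77 in CAST+/129-, CAST-/129+ and CAST-/129-. Id1 was then at 62.6, 43.5, 40.2 and 30.8 FPKM, Id2 at 2.56, 56.4, 43.3 and 22.4, and Id3 at 2.52, 11.5, 26.1 and 17.3, in the same order of clones. The order of the clones was as before for Id1, Id2 and Id3, and Bmp4 in CAST+/129- moved from just below to just above wild type. Introns of the 8 genes were close to empty, with 8 alignments over 86257 intronic bases of Bmpr1a in wild type as the highest count, so unspliced RNA could not be compared between clones.

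Beyond the 8 genes, 63 other genes of the pathway were measured. In CAST+/129- 0 were called in either direction, in CAST-/129+ 1 was called higher and 0 lower, and in CAST-/129- 4 were called higher and 0 lower, beside the shares of all genes given above. The median log2 ratios were -0.01, 0.04 and 0.09. At this threshold the calls fell among the 16 antagonists, which bind ligands outside the cell and keep them from their receptors. At 2-fold the 63 genes held 3 higher and 3 lower in CAST+/129-, against 0.905% and 1.27% of all genes, 5 and 2 in CAST-/129+, against 1.22% and 1.53%, and 9 and 1 in CAST-/129-, against 2% and 1.92%. Those of other roles, named after their values were seen, were Bmp8b higher and Hes1, Smad7 and Tob1 lower in CAST+/129-, Bmp8b and Gata2 higher and Smad7 and Tob1 lower in CAST-/129+, and Gata2 and Rgma higher and Smad7 lower in CAST-/129-. Of the 14 ligands, 10 receptors and co-receptors, 10 SMADs and SMAD regulators, 10 target genes and 3 E proteins, 0 were called in any clone at 3-fold. At 3-fold, most of the 63 genes could not have been called lower at their wild type levels, even at 0 counts. This held for most of the ligands, receptors and co-receptors, antagonists and target genes. The counts of 0 lower therefore rest on the remaining genes, mainly SMADs and SMAD regulators and E proteins.

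Grem1, the ligand trap Gremlin 1, was at 0.397 FPKM in wild type, and the CAST+/129- clone had 5.85, the CAST-/129+ clone 4.68 and the CAST-/129- clone 40.7 (38.2 to 43.3), with log2 ratios of FPKM plus 4 of 1.16, 0.98 and 3.34. Cer1, the secreted antagonist Cerberus 1 of the anterior endoderm and early mesendoderm, was at 0.0462 FPKM in wild type from 2 alignments, 0.138 in CAST+/129- from 3, 14.3 in CAST-/129+ and 37.3 in CAST-/129-, and was called in the latter pair. Cer1 was at background in the clone lacking the 129 copy and well above it in the clone lacking the CAST copy. Fst, which encodes the activin and BMP trap follistatin, was at 2.87, 4.47, 9.86 and 17.6 FPKM from wild type to CAST-/129-, and the related Fstl1 at 16.8, 16.6, 21.7 and 59.1 FPKM. Both were called in CAST-/129- alone, with log2 ratios of 1.65 and 1.60, just past the threshold of 1.58. With all alignments as library size Fst was at 1.52 and was not called. Summed FPKM of the 16 antagonists was 53.7, 55.9, 85.4 and 200.1. Grem1, Fst and Fstl1 are known to be expressed by fibroblasts, and the fibroblast marker sum given above was also highest in CAST-/129-, with 8 of 13 markers called higher. Its part in these values was not tested.

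The median log2 ratios in CAST+/129-, CAST-/129+ and CAST-/129- were 0.00, 0.00 and 0.01 for ligands, -0.08, 0.03 and 0.12 for receptors and co-receptors, -0.34, -0.30 and -0.09 for SMADs and SMAD regulators, 0.20, 0.40 and 0.34 for target genes and -0.51, -0.10 and -0.04 for E proteins, beside 0.02, 0.30 and 0.44 for the antagonists. Most ligands other than Bmp4 were below 4 FPKM in wild type, where the added 4 draws ratios towards 0. Without it, Bmp8b was at 1774%, 2170% and 1121% of wild type, and Bmp6 at 7.26%, 26.5% and 17.2%. Among ligands other than Bmp4, the gene with the highest wild type level was Gdf3, a divergent BMP family ligand of pluripotent cells, at 27.8, 37, 19.7 and 24.1 FPKM from wild type to CAST-/129-. Among receptors other than Bmpr1a it was Acvr2b, a type II receptor, at 19.4, 16.6, 23.4 and 18.6 FPKM. Smad7, the other inhibitory SMAD, was the highest of the SMADs and regulators, at 45.8 FPKM (44.6 to 47.1) in wild type, and the CAST+/129- clone had 20.8 (19.7 to 22.1), the CAST-/129+ clone 14.2 (12.9 to 15.7) and the CAST-/129- clone 14.3 (12.9 to 15.8). Smad7 was thus lower than wild type beyond counting error in each mutant clone, with log2 ratios of -1.0, -1.45 and -1.44 that did not pass the threshold, where Smad6 was higher in both clones with 1 SE copy. Twsg1, a modulator of BMP ligands, was the highest antagonist in wild type, at 26.8, 14.5, 17.6 and 18.5 FPKM. Dusp9, a MAPK phosphatase that BMP is known to induce in ESCs, was the highest of the target genes, at 93.6, 110.4, 95.4 and 118 FPKM. Tcf3 was the highest E protein gene, at 38.5, 32.3, 35.7 and 32.5 FPKM.

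**Figure D4:**
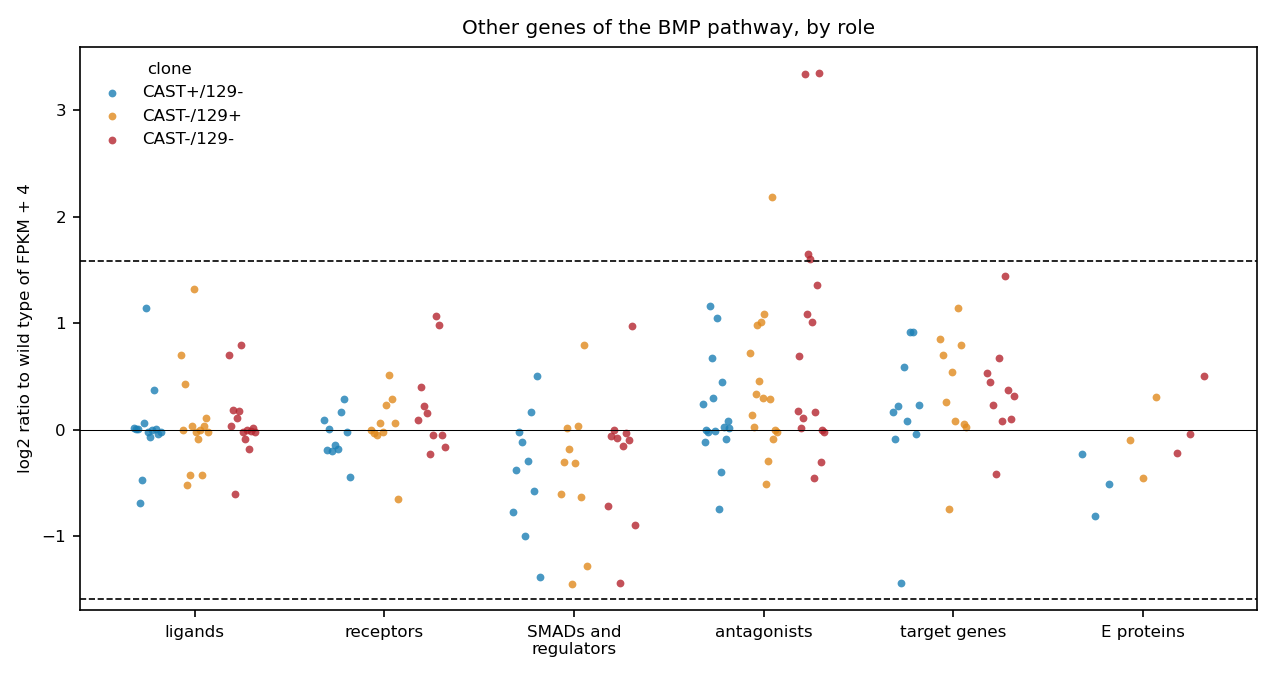
Log2 ratio to wild type of FPKM plus 4 for 63 other genes of the BMP pathway, grouped by role along the x axis, with 1 point per gene and clone. Dashed lines mark 3-fold. The points past the upper line are antagonists, 1 in CAST-/129+ and 4 in CAST-/129-, and no point passes the lower line. Most of the 63 genes could not reach the lower line at their wild type levels.

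The histone marks were measured in unmodified cells only and describe the starting state of the 8 genes. H3K4me3 marks promoters, active or poised, and H3K27ac marks active promoters and enhancers. Alignments were counted within 2 kb of the gene start and divided by the mean density of chromosome 3 in the same library, with no input, and a start was called marked from 5-fold on. For H3K4me3 in F123 all 8 starts were marked, against 37.3% of all starts. The folds were 19.6 (16.9 to 22.6) at Bmpr1a, 14.2 at Smad6, 13.5 at Bambi and 12.1 at Id1, then 7.77 at Id4, 6.11 at Id2, 5.91 at Id3 and 5.18 (3.85 to 6.83) at Bmp4, where the interval included the threshold. The intervals of Id2 and Id3 included it too. Within 1 kb of the start Bmp4 fell to 4.56-fold, within 5 kb Id3 and Id4 fell to 3.86-fold and 3.69-fold, and against the mean of its own chromosome Id3 was at 4.98-fold, so that 7, 6 and 7 starts were marked, against 41.7%, 24.8% and 35.4% of all starts.

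For H3K27ac in F123 5 of the 8 starts were marked, against 25.7% of all starts, and in J1 4 of the 8, against 22.5%. Bmp4, Bmpr1a, Smad6 and Id1 were marked in both libraries, at 14.1-fold, 20.4-fold, 7.84-fold and 22-fold in F123 and at 16.6-fold, 13.1-fold, 9.65-fold and 10.5-fold in J1. The H3K27ac libraries held 5.1 reads per distinct alignment in F123 and 10.5 in J1. Fold sizes here and below are therefore not compared between them. These folds also depend on the window. Of the 24 values of the 8 genes in the 3 libraries, 11 rose and 1 fell by over 1.5 times within 1 kb, and 12 fell by as much within 5 kb, among them Bmpr1a to 8.58-fold in F123 and 6.5-fold in J1, while Id1 in F123 was at 12.5-fold within 1 kb and 13-fold within 5 kb. Bambi was marked in F123 alone, at 8.89-fold (5.18 to 14.2) against 2.94-fold (1.95 to 4.24) in J1, but this call moved with the window: within 1 kb it was marked in J1 too, at 5.24-fold, and within 5 kb, where 19.3% and 14.8% of all starts were marked in F123 and J1, in neither, at 3.77-fold in F123. Id2, Id3 and Id4 were marked in neither, at 2.61-fold, 2.09-fold and 1.57-fold in F123 and 1.78-fold, 2.62-fold and 3.57-fold in J1. Over all gene starts the median fold was 1.57 in F123 cells and, for J1 cells, 1.78. The F123 library held only 1576875 distinct alignments, so that the windows of Id2, Id3 and Id4 rest on 5, 4 and 3 of them, and the intervals of Id2 (0.849 to 6.1) and Id3 (0.57 to 5.35) include the threshold. Within 1 kb of the start Id2 was marked in F123, at 5.23-fold, and Id4 in J1, at 5.87-fold, which made 6 of 8 marked in each library, against 31.2% of all starts in F123 and 28.8% in J1. Within 2 kb, Id1, at 69 FPKM in wild type, had both marks at its start, while Id2, Id3 and Id4, between 2.97 and 4.11 FPKM, had H3K4me3 past the threshold and H3K27ac below it. Smad6 and Bambi were at 1.52 and 2.75 FPKM, and their H3K27ac in F123 was past the threshold within 2 kb but not within 5 kb, at 4.18-fold and 3.77-fold, with an interval of 4.39 to 12.9 for Smad6 within 2 kb that included the threshold.

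**Figure D5:**
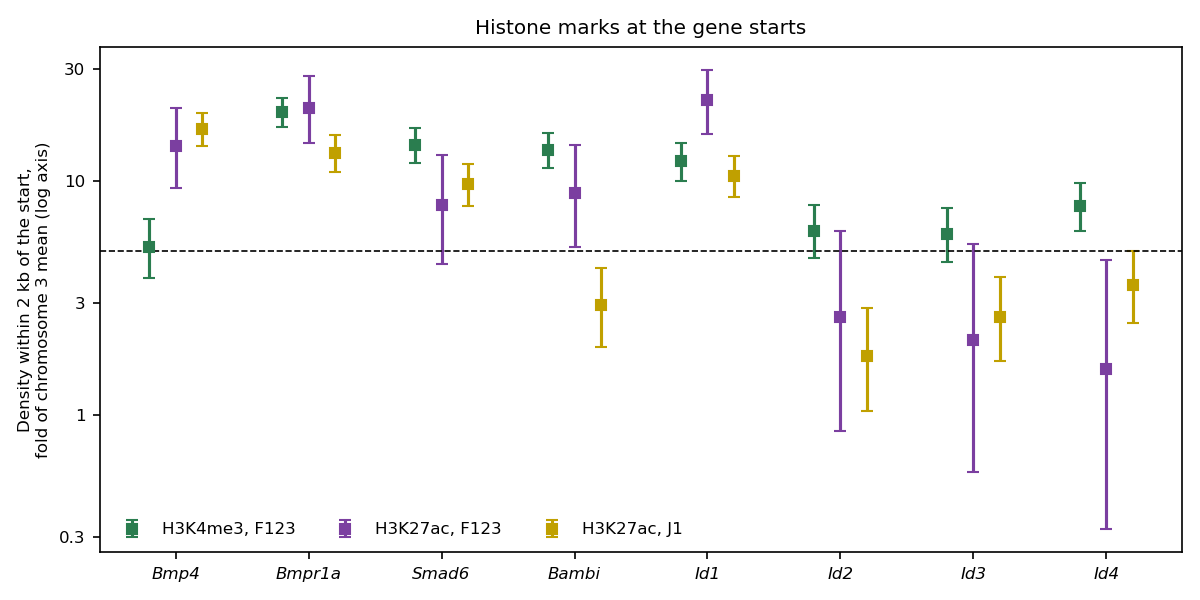
Density of distinct ChIP-seq alignments within 2 kb of each gene start as a fold of the chromosome 3 mean of the same library, on a log axis. Squares are single libraries, bars are exact 95% Poisson intervals, and the dashed line is the 5-fold threshold. All 8 H3K4me3 squares lie above the line, and both H3K27ac squares of Id2, Id3 and Id4 lie below it.

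Along 500-bp bins within 10 kb of the starts, the highest H3K4me3 bin lay within 1.5 kb of the start in 7 of the 8 genes. The exception was Bmp4, whose highest bin, at 22.4-fold, was 2500 to 3000 bp downstream of the annotated start. That bin lies within Gm15222, near the start of this opposite-strand gene at 47007194, so the mark cannot be assigned to Bmp4 alone. The H3K27ac around the Bmp4 start was highest upstream instead, from -1500 to -1000 bp in F123 and from -1000 to -500 bp in J1. Away from gene starts, the 1-kb bin within 50 kb with the most H3K27ac in F123 was found for each gene. That of Id1, at 152552987 to 152553986 on chromosome 2, upstream of the gene, reached 159-fold (125 to 199) in F123 and 60.8-fold (51.3 to 71.6) in J1. That of Id3, at 135733412 to 135734411 on chromosome 4, downstream of the gene, reached 129.7-fold in F123 and 53.3-fold in J1, although the Id3 start itself was marked in neither library. That of Bmpr1a, at 35361528 to 35362527 on chromosome 14, reached 109-fold in F123 and, in the J1 library, 42.8-fold. The Bmpr1a bin also held H3K4me3, at 17.8-fold (12.9 to 24), beside 6.22-fold in the bin of Id1 and 5.8-fold in that of Id3. For the other 5 genes the highest bin was between 10.5-fold at Bambi and 39.7-fold at Smad6 in F123. Which gene such a bin acts on was not tested, and other genes lie within the same distance.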

How the data were processed

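RNA-seq of 4 F123 clones and 3 ChIP-seq libraries were analysed, 7 libraries in all. RNA-seq libraries were strand-specific and made from polyA+ RNA. The authors mapped RNA-seq reads with Novoalign and USeq and ChIP-seq reads with Bowtie, all to mm9, with versions not given in the sources used here. They deposited aligned positions in which identical alignments are collapsed to 1 line, with a whole-number count of the reads behind each. Collapsing limits the count of short or abundant transcripts most in the deepest library. The 8 genes had fewer reads per alignment in wild type than that library as a whole. In these files 0 columns went unmapped to a sample.

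Distinct alignments were assigned by midpoint to exons of GENCODE M1 on the strand opposite to the deposited one, leaving out bases shared by several genes and genes with under 200 bases left. Library size was the alignments on genes. ChIP-seq alignments were counted by their 5′ end. Reads per distinct RNA-seq alignment were 1.84 to 2.58, and antisense alignments 2.89% to 3.39%. For ChIP-seq, reads per distinct alignment were 1.27 for H3K4me3 in F123, 5.1 for H3K27ac in F123 and 10.5 for H3K27ac in J1. Members and gene lists were chosen with earlier results of these data known. Named are the 8 genes, other pathway genes past 3-fold, the highest gene of each role in wild type, and the 3 genes nearest to Bmp4 and to Id1. Outside this rule, markers of cell types, pathway genes past 2-fold and Bmp6 were named after their values were seen. Alternatives changed the unit, depth, library size, pseudo-value, threshold, strand, shared bases, filter, ChIP window, background and read shift. The counting rule was tried on simulated Poisson counts, with changes planted only in genes well above the wild type levels of Smad6, Bambi, Id2, Id3 and Id4. That check does not cover these genes or variation between clones. Alleles were not told apart. Exons were matched to the genome with BLAST 2.17.0, and scipy 1.17.1, numpy 2.4.6, matplotlib 3.10.9, pandas 2.3.3 and samtools 1.23.1 on Python 3.11.15 were used.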

Additional observations from a re-analysis of the deposited data

Results flagged for a closer look

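Alignments on the antisense strand, which are used only in the alternative that counts both strands, were seen at Id2 in CAST-/129+. There were 4 of them in its exons, or 0.658 per 1000000 alignments on genes (0.179 to 1.68), where wild type had 0, which allows up to 0.148 per 1000000. They were 1.1% of all Id2 alignments in that clone, below the 3.39% of antisense alignments over all genes of the library. In CAST+/129- there were 5 such alignments at Id2, or 0.4 per 1000000 (0.13 to 0.934), an interval that includes the limit of wild type. The difference between these clones was not tested.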

How the results depend on the processing

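Over the alternatives tried, 119 counts of genes or marked starts stayed within 1.5 times the reported count and 31 moved, and of the single-gene ratios and start folds 274 stayed within the counting interval of the reported value and 62 moved out of it, with 0 reversals of a called value. Among the 8 genes, the CAST+/129- count of 1 higher became 2 with a pseudo-value of 1 or a 2-fold threshold. The CAST-/129+ count of 2 higher became 1 with a pseudo-value of 10 or a 5-fold threshold. The CAST-/129- count of 1 higher became 2 with reads thinned to the smallest library, a pseudo-value of 1 or a 2-fold threshold, and 0 with a pseudo-value of 10 or a 5-fold threshold, and its 1 lower became 2 at 2-fold and 0 with a pseudo-value of 10 or at 5-fold. Among the other pathway genes a pseudo-value of 1 gave 6 higher and 2 lower in CAST+/129-, 7 and 1 in CAST-/129+ and 12 and 1 in CAST-/129-, and a 2-fold threshold gave 3 and 3, 5 and 2, and 9 and 1. Of these, 5, 5 and 6 genes with a pseudo-value of 1 and 4, 4 and 3 at 2-fold were not antagonists. The shares of all genes called higher and lower were 0.911% and 1.1%, 1.36% and 1.29%, and 2.22% and 1.79% in the 3 clones with a pseudo-value of 1, and those at 2-fold stand with the pathway genes above. With 10 as the pseudo-value, and also at 5-fold, the counts were 0 higher in CAST-/129+ and 2 in CAST-/129-, against 0.238% and 0.381% of all genes called higher in these clones with a pseudo-value of 10 and 0.178% and 0.327% at 5-fold, and 0.159% and 0.0921% called lower in CAST-/129-. With thinned reads 0.914% of all genes were called higher in CAST-/129-. With all alignments as library size 3 were higher in CAST-/129-, against 0.664% of all genes, Fst being lost. At a 10-fold threshold 4 starts were marked by H3K4me3 and 3 by H3K27ac in F123, against 23.5% and 16% of all starts, and a 5-kb window gave 3 for the latter, against 19.3%, while calls of single starts that moved with the window stand beside those results. These moves follow from the altered rule itself, except for thinning, where Id3 in CAST-/129- had a log2 ratio of 1.71. With thinning Id3 went from 3.54 to 2.52 FPKM in wild type and stayed at 17.3 in CAST-/129-. The reason for the wild type move was not tested. The log2 ratio at the fixed pseudo-value changed sign only for Bmp4 and Bmpr1a in CAST+/129-, where it lay between -0.06 and 0.06. Depth limits Smad6 and Id4 most, with 17 to 30 alignments in the smallest cases. No paired analysis was possible because each genotype has 1 library, and for the same reason no library could be left out.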
